A study of Homo sapiens with 2 samples.

Results

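The human mitochondrial genome is a small circle whose 37 genes encode 2 ribosomal RNAs, 22 transfer RNAs and 13 proteins of the oxidative phosphorylation complexes. The sites described here are the 30 positions on that genome among the 2960 deletion positions listed for SF3A1 crosslinking and immunoprecipitation, or 1.01% of the list (exact Clopper-Pearson 95% interval 0.685 to 1.44). They were chosen by chromosome alone and assigned to the 37 RefSeq genes by position and strand. C4-2B is an established prostate cancer epithelial line, here in a derivative made ready for CRISPR interference. It was grown without any treatment named in the labels, collected at 48 h, crosslinked at 254 nm and 400 mJ/cm2, and precipitated with 2 µg of an antibody against SF3A1, a subunit of the U2 small nuclear ribonucleoprotein. The 2 libraries form 1 group and were pooled in the list, so no value has a spread between libraries, no comparison between conditions exists, and the depth of each library is unknown. Libraries without the antibody were not analysed here. Of 11 prostate luminal markers fixed for the check of cell identity, 6 had a site (54.5%, exact interval 23.4 to 83.3), against 10.1% of all nuclear protein-coding genes; KLK3 had 4 sites. The 3 basal and 3 neuroendocrine markers had none, which at that background says nothing of identity.

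Each strand of the mitochondrial genome is copied into a long RNA that is cut into its mature parts, often at the tRNAs that lie between the other genes. The RNA copied from the heavy strand reads like the plus strand of the reference sequence and holds both rRNAs, 14 tRNAs and 12 of the protein-coding genes. The RNA copied from the light strand reads like the minus strand and holds ND6 and 8 tRNAs; the rest of it is antisense to the genes of the other strand and is normally short-lived. Mitochondrial genes have no introns, and SF3A1 is known for its work in the nucleus, where the U2 particle recognises the branch site of introns.

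For each site the authors deposited the number of tags over the base and the number of those tags with the base deleted; their quotient is called the deleted share below. Reverse transcriptase can skip a base that carries a crosslinked peptide, so such a deletion can mark contact. Whether a given listed deletion marks contact with SF3A1 was not tested. Intervals are exact Clopper-Pearson 95% intervals over tags or, for counts of sites, over sites; they cover counting error only. Tag counts at listed sites are not levels of the RNAs, and RNA abundance was not measured.

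A site on the minus strand and a site on the plus strand stood at the same base, position 3107, in the gene of the large-subunit rRNA. This was the only base of the mitochondrial genome listed on both strands, and 0 nuclear bases were. The build's mitochondrial sequence is, as background, the revised Cambridge reference, in which this position is a placeholder that keeps older numbering in place and stands for no base of the molecule. No sequence was at hand to check this here; if it holds, a deletion there says nothing of contact. On the minus strand 202 of 202 tags had the deletion (interval 98.2 to 100), the most tags of any minus-strand site. On the plus strand 27 of 41 tags had it (65.9%, 49.4 to 79.9) and 14 did not, although plus-strand neighbours at 3071 and 3174 were covered by 489 and 2049 tags. Most counts of sites by strand, class and share below are given with and without this position.

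Sites lay mainly on the heavy-strand transcript. The plus strand held 22 of 30 sites (73.3%, interval 54.1 to 87.7), or 21 of 28 (75%, 55.1 to 89.3) without position 3107. All 22 plus-strand sites were sense to an annotated gene. Of the 8 minus-strand sites, 1 was sense, in the proline tRNA gene TRNP, 6 were antisense and 1 lay in the noncoding control region. On the nuclear chromosomes 1482 of 2923 sites were on the plus strand (50.7%, 48.9 to 52.5), a value that there has no meaning for gene strand. Plus-strand sites were also covered by more tags: 18 to 202 tags lay over the minus-strand sites and 35 to 2049 over the plus-strand sites, which overlapped. The plus strand took 8439 of the 9128 tags summed over the mitochondrial sites (92.5%), or 8398 of 8885 (94.5%) without position 3107.

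**Figure D1:**
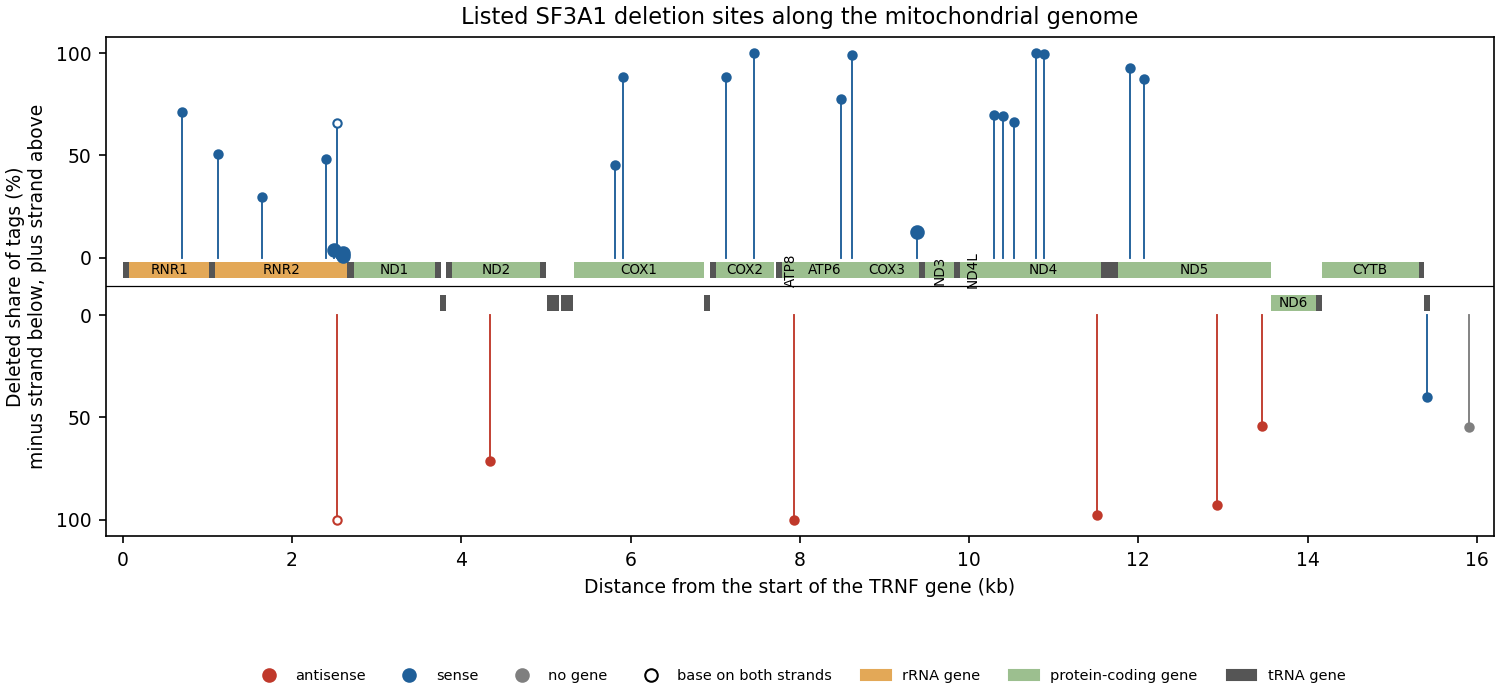
Each of the 30 sites is drawn at its distance in kb from the start of the TRNF gene (x axis), with its deleted share in percent as the height (plus strand upward, minus strand downward, each from its own 0). Boxes are genes on their strand, larger points have over 400 tags, and open points mark the base listed on both strands. The 22 plus-strand sites are all sense, while 6 of the 8 minus-strand sites are antisense.

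Sense sites fell in 9 of the 37 genes: both rRNA genes, 6 of 13 protein-coding genes and 1 of 22 tRNA genes. The 2 rRNA genes held 8 sense sites over 2513 nt, or 3.18 per kb (exact Poisson interval 1.37 to 6.27), and 7 (2.79 per kb, 1.12 to 5.74) without position 3107. The 12 plus-strand protein-coding genes held 14 over 10870 nt, or 1.29 per kb (0.704 to 2.16). These intervals overlap, and the difference in density between the classes was not tested. The 14 plus-strand tRNA genes, with 956 nt in all, had none. Protein-coding genes without a sense site were ND1, ND2, ND3, ND4L and ND6, which encode subunits of complex I, ATP8 of the ATP synthase, and CYTB of complex III. As the list holds only positions past the authors' threshold, absence from it says nothing of coverage.

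The small-subunit rRNA gene RNR1 (positions 648 to 1601) held 1 site, at 1282, base 635 of its 954. The deletion was in 37 of 52 tags (71.2%, 56.9 to 82.9).

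The large-subunit rRNA gene RNR2 (1671 to 3229, 1559 nt) held the most sense sites, 7, of which 1 is at position 3107. The other 6 differed in share along the RNA. Near the 5′ end, the site at 1700 (base 30) had the deletion in 120 of 237 tags, or 50.6% (44.1 to 57.2). Further along, at 2220 (base 550), the deletion was in 50 of 168 tags, or 29.8% (23.0 to 37.3). At 2978 (base 1308) it was in 124 of 258 tags, or 48.1% (41.8 to 54.3). These 3 sites were of like coverage, and the one at 2220 had an interval below those of the other two.

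The 3 sites nearest the 3′ end of RNR2 had many tags and few deletions. At 3071 (base 1401) 18 of 489 tags had the deletion, a share of 3.68% (2.20 to 5.76). At 3174 (base 1504) it was 19 of 2049 tags, or 0.927% (0.559 to 1.44), the lowest share of all 2960 listed sites. The site at 3183 (base 1513) had 47 of 2027 tags, or 2.32% (1.71 to 3.07), the next lowest. The sites at 3174 and 3183 lie 9 nt apart, and they rank 2 and 3 in coverage over the whole list. Their intervals do not overlap, and all 3 lie below those of the upstream RNR2 sites. The group of 3, which spans 113 nt, was picked out after its values were seen. It ends 46 nt before the end of the gene, where the leucine tRNA gene TRNL1 follows.

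The genes of cytochrome c oxidase (complex IV), which passes electrons to oxygen, held 5 sense sites. COX1 (5904 to 7445), the catalytic subunit, had 53 of 117 tags deleted at 6392 (45.3%, 36.1 to 54.8) and 31 of 35 at 6487 (88.6%, 73.3 to 96.8). Those intervals do not overlap, though the sites lie in the same gene. COX2 (7586 to 8269), which takes electrons from cytochrome c, had 85 of 96 at 7710 (88.5%, 80.4 to 94.1) and 132 of 132 at 8040 (100%, 97.2 to 100). COX3 (9207 to 9990), a core subunit, had 1 site, at 9961 and base 755 of 784. The deletion was in 164 of 1287 tags there (12.7%, 11.0 to 14.7), the lowest share and the highest coverage among the sites in mitochondrial mRNAs. That site lies 29 nt before the end of COX3 and 30 nt from the glycine tRNA gene TRNG.

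ATP6 (8527 to 9207), a subunit of the proton channel of the ATP synthase, held 2 sense sites. At 9066 (base 540) the deletion was in 133 of 171 tags (77.8%, 70.8 to 83.8). At 9199 (base 673 of 681) it was in 357 of 360 tags (99.2%, 97.6 to 99.8), the most deleted tags of any mitochondrial site and rank 17 in the whole list. This site is 8 nt from the end of ATP6, whose last base is also the first base of COX3; no tRNA gene separates them.

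Among the complex I genes, whose products take electrons from NADH, ND4 held 5 sense sites and ND5 held 2. The first 3 sites of ND4 (10760 to 12137), at bases 111, 218 and 352 of 1378, had partial shares: 105 of 150 tags at 10870 (70%, 62.0 to 77.2), 25 of 36 at 10977 (69.4%, 51.9 to 83.7) and 211 of 318 at 11111 (66.4%, 60.9 to 71.5). The next 2, at bases 606 and 702, were complete or nearly so, with 49 of 49 tags at 11365 (100%, 92.7 to 100) and 198 of 199 at 11461 (99.5%, 97.2 to 99.99). Intervals of the first 3 overlap each other and none reaches those of the next 2. ND5 (12337 to 14148) had 91 of 98 tags at 12481 (92.9%, 85.8 to 97.1) and 61 of 70 at 12643 (87.1%, 77.0 to 93.9), which overlap. No plus-strand site was listed after 12643, which leaves the last 1505 nt of ND5 and all of CYTB without a sense site.

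The 14 sense sites in mRNAs had no marked place within codons. Counted from the start of each gene, 4 lay at codon base 1, 5 at base 2 and 5 at base 3. They lay at codons 163 and 195 of COX1, 42 and 152 of COX2, 180 and 225 of ATP6, 252 of COX3, 37, 73, 118, 202 and 234 of ND4, and 49 and 103 of ND5. The frame assumes that each gene's coordinates begin with its start codon, which was not checked.

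**Figure D2:**
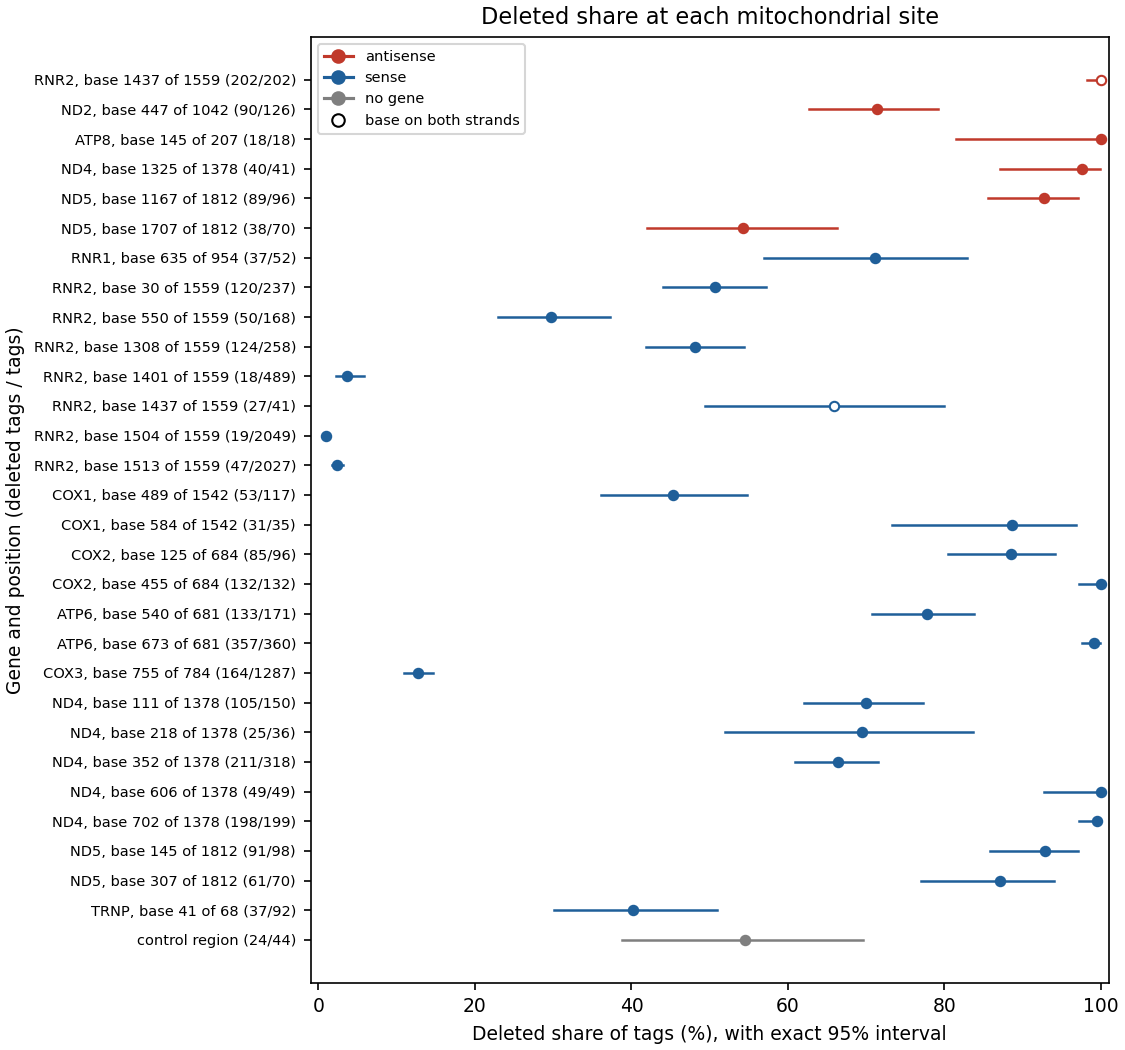
Deleted share in percent (x axis) at each of the 30 sites (rows, grouped as antisense, sense and no gene and then by position), with exact 95% intervals over tags as lines; labels give the base counted from the gene's own 5′ end and the deleted tags over all tags. Shares run from 0.927% to 100%, with the 3 best covered RNR2 sites and the COX3 site at the left.

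Besides its antisense sites, the light-strand transcript held 1 sense site and the site in the control region. TRNP (15956 to 16023), the tRNA for proline, had the deletion in 37 of 92 tags at 15983, base 41 of 68 (40.2%, 30.1 to 51.0). This was the only site in a tRNA gene and the lowest share on the minus strand. The control-region site, at 16480, is 457 nt past the last base of TRNP on the reference, which puts it upstream of TRNP on the light-strand RNA. It had 24 of 44 tags deleted (54.5%, 38.8 to 69.6), and the intervals of these neighbours overlap. ND6, the only mRNA of this transcript, had no site.

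Antisense sites stood opposite RNR2 (position 3107), ND2, ATP8, ND4 and ND5. Opposite ND2 (4470 to 5511), a complex I gene, 90 of 126 tags at 4916 had the deletion (71.4%, 62.7 to 79.1). Opposite ATP8 (8366 to 8572), 18 of 18 tags at 8510 had it (100%, 81.5 to 100), the fewest tags of any mitochondrial site. Opposite the end of ND4, the site at 12084 had 40 of 41 tags (97.6%, 87.1 to 99.9). ND5 had antisense sites at 13503, with 89 of 96 tags (92.7%, 85.6 to 97.0), and at 14043, with 38 of 70 tags (54.3%, 41.9 to 66.3). So ND4 and ND5 had sites on both strands, at different bases. Without position 3107, the median share was 92.7% over 5 antisense sites (range 54.3 to 100) and 69.7% over 22 sense sites (range 0.927 to 100). All 5 of these antisense sites lay opposite protein-coding genes, while the sense sites include those in rRNA and TRNP. The 14 sense sites in protein-coding genes had a median of 87.8%. The ranges overlap, coverage differed (18 to 126 tags antisense and 35 to 2049 sense), and the difference was not tested.

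Mitochondrial sites were often deleted in part of their tags, while most nuclear sites were deleted in nearly all. A share under 90% was found at 21 of 30 mitochondrial sites (70%, 50.6 to 85.3), or 20 of 28 (71.4%, 51.3 to 86.8) without position 3107, against 198 of 2923 nuclear sites (6.77%, 5.89 to 7.75). Over the whole list such sites made up 7.5%. The median share was 70.6% over mitochondrial sites (exact order-statistic interval 54.3 to 88.6) and 100% over nuclear sites. A share under 40% was found at 5 mitochondrial sites (16.7%, 5.64 to 34.7) and 73 nuclear sites (2.50%, 1.96 to 3.13), against 2.67% of the whole list; without position 3107 it was 5 of 28 mitochondrial sites (17.9%, 6.06 to 36.9). The deletion was in every tag at 4 mitochondrial sites (13.3%, 3.76 to 30.7) and 2236 nuclear sites (76.5%, 74.9 to 78.0), against 75.8% of the whole list; without position 3107 it was 3 of 28 mitochondrial sites (10.7%, 2.27 to 28.2). The 4 were COX2 at 8040, ND4 at 11365, ATP8 at 8510 antisense, and position 3107 on the minus strand. Sites of 1 genome share their libraries and many share an RNA, so they are not replicates and no p-value is given.

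Median coverage was 121.5 tags at mitochondrial and 54 tags at nuclear sites, so shares were also set side by side within ranges of coverage. Under 100 tags, 9 of 14 mitochondrial sites (64.3%, 35.1 to 87.2) and 116 of 2253 nuclear sites (5.15%, 4.27 to 6.14) had a share under 90%. From 100 to 400 tags these were 8 of 12 (66.7%, 34.9 to 90.1) and 64 of 638 (10.0%, 7.81 to 12.6). Over 400 tags they were 4 of 4 (100%, 39.8 to 100) and 18 of 32 (56.3%, 37.7 to 73.6). Without position 3107 the mitochondrial counts were 8 of 13 (61.5%), 8 of 11 (72.7%) and 4 of 4. With or without it, the intervals do not overlap in the 2 lower ranges and overlap in the highest. Shares under 40% were not set apart in this way. They were at 0 of 14 mitochondrial and 22 of 2253 nuclear sites under 100 tags, at 1 of 12 and 34 of 638 from 100 to 400 tags, and at 4 of 4 and 17 of 32 over 400 tags. No listed site has fewer than 13 deleted tags, which bars low shares at low coverage. Low shares were not confined to mitochondria: the nuclear noncoding RNA MALAT1 had a share under 90% at 15 of its 17 plus-strand sites, with a median of 16.9%.

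**Figure D3:**
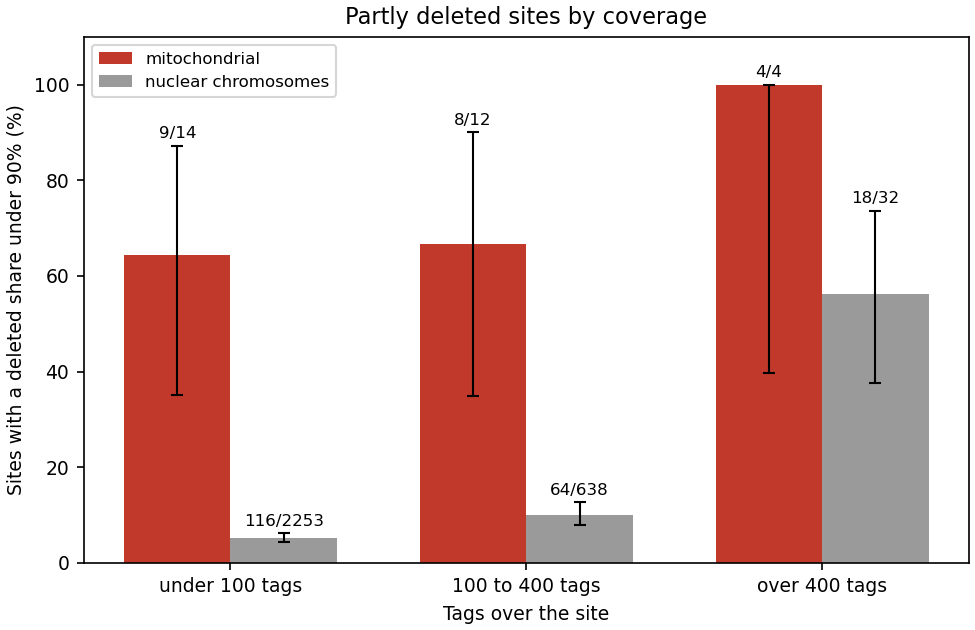
Percent of sites with a deleted share under 90% (y axis, bars from 0) by tags over the site (x axis), for mitochondrial and nuclear sites; lines are exact 95% intervals over sites and labels give counts. The mitochondrial bars are 64.3%, 66.7% and 100%, beside nuclear bars of 5.15%, 10.0% and 56.3%.

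**Figure D4:**
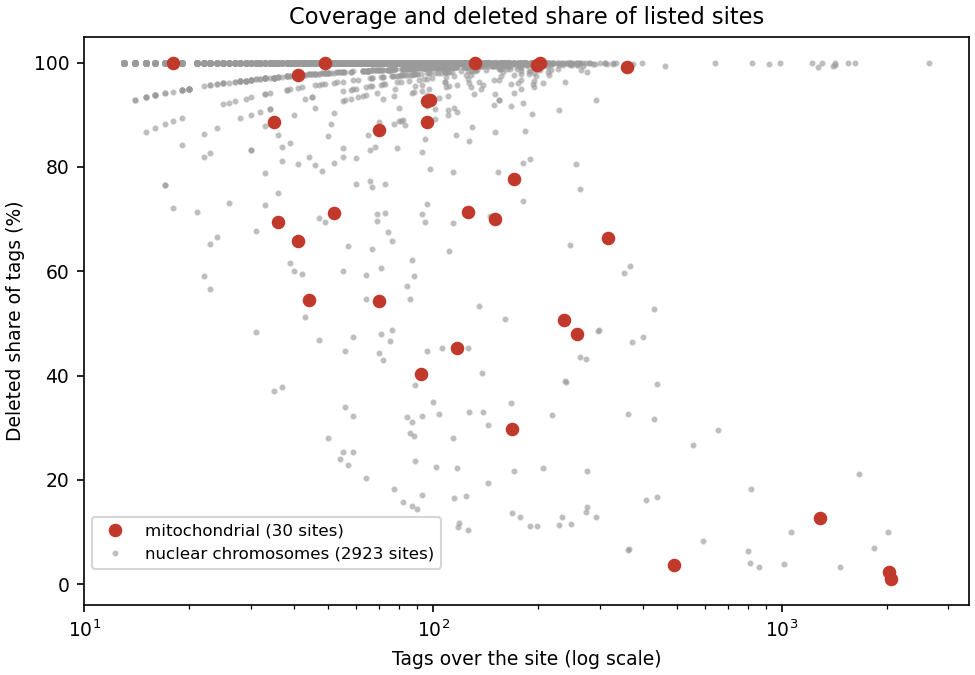
Deleted share in percent (y axis) against tags over the site (x axis, log scale), with 30 mitochondrial sites in red and 2923 nuclear sites in grey. Mitochondrial sites spread over all shares, and the 4 with over 400 tags have shares of 0.927% to 12.7%.

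Within the mitochondrial set, the median share was lower in rRNA than in mRNA. The 7 sense rRNA sites other than position 3107 had shares of 0.927% to 71.2%, with a median of 29.8%, and none reached 90%. The 14 sense mRNA sites had shares of 12.7% to 100%, with a median of 87.8%, and 5 of them reached 90%. Coverage differed in the opposite direction: the medians were 258 tags for those rRNA sites and 124.5 tags for the mRNA sites. Its part in the result was not tested.

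Nuclear genes that serve the same pathway carried sites at about the background rate. Of 19884 nuclear protein-coding genes, 10.1% had a site in the gene body on either strand. Among 87 nuclear-encoded subunits of the oxidative phosphorylation complexes, 8 had a site (9.20%, interval 4.05 to 17.3). These include ATP5F1B, the catalytic subunit of the ATP synthase, with 2 sites, and NDUFS3, NDUFV1 and NDUFV2 of the matrix arm of complex I with 1 each. ATP5MC1, ATP5MF, NDUFA12 and NDUFB2 held the others. All 9 of these nuclear sites had shares of 95.7% or more, while 9 of the 14 sense sites in the mitochondrially encoded mRNAs had a share under 90%. That sets the nuclear subunits near the nuclear sites as a whole, of which 6.77% had a share under 90%. Coverage differed: 13 to 134 tags lay over these nuclear sites and 35 to 1287 over the sense sites in mitochondrial mRNAs. No listed site has fewer than 13 deleted tags, so the ATP5MF site, with 13 tags, could only have a share of 100%. The part of coverage in this contrast was not tested. Of 77 mitochondrial ribosomal protein genes, 9 had a site (11.7%, 5.49 to 21.0), among them MRPL21, MRPL22, MRPL30, MRPL37 and MRPL42 with 1 each. MRPS25 had 2, at the adjacent bases 15052394 and 15052393 of the minus strand of chromosome 3. The deletion was in 77 and 16 of 93 tags there (82.8% and 17.2%). Whether these are separate events or the same deletions placed at either base was not tested. Of 24 genes for synthesis and processing of mitochondrial RNA, 4 had a site (16.7%, 4.74 to 37.4). They were PRORP, the nuclease that cuts 5′ of mitochondrial tRNAs, with 3 sites, the poly(A) polymerase gene MTPAP, PNPT1, which encodes polynucleotide phosphorylase, and TFAM, which packages mitochondrial DNA and aids its transcription. All 3 intervals include the background.

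Copies of mitochondrial sequence in the nuclear chromosomes can share tags with the mitochondrial genes. Among 486 annotated nuclear copies, 1 held a listed site. It was MTATP6P1 on chromosome 1, a copy of ATP6 of the same annotated length, with the deletion in 50 of 76 tags (65.8%, 54.0 to 76.3). Counted from its lower coordinate, that site was base 349 of the 681 nt copy, on the plus strand, and neither ATP6 site, at bases 540 and 673, lay at that base. No source used here states how tags that match both a nuclear copy and the mitochondrial genome were placed, so the tag counts at mitochondrial sites may lack or include such tags.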

How the data were processed

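Anti-SF3A1 crosslinking and immunoprecipitation was done in 2 C4-2B libraries. The authors deposited 1 list of single bases with, as counts of tags, the tags over each base and those with a deletion, both whole numbers used without normalization. The other field, the site's name, holds both counts and an index, as deposited. Per the name the authors gave the list, tags were pooled and unique, and sites passed an FDR of 10 percent in crosslink-induced mutation site (CIMS) analysis. Build hg38 and the tools BWA 0.7.17, cutadapt, UMI-tools and SAMtools are listed in the submitters' processing notes; no source used here states their roles, settings or the treatment of multiply mapped tags.

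Coordinates are 1-based. Genes came from the RefSeq table of GRCh38.p14; strand of the mitochondrial genes, which that table lacks, is textbook knowledge. A site inside a gene of its own strand was sense; otherwise a gene on the other strand made it antisense. Shares have exact Clopper-Pearson and site densities exact Poisson 95% intervals. All listed mitochondrial sites are described. Members of the pathway lists with a site are named, up to 6 a list. For the oxidative phosphorylation subunits all 8 are named. The members, lists and alternatives were chosen with earlier results of these data known. Gene assignment and intervals were tested on simulated data. No sequence of the mitochondrial genome or its proteins was used. Python 3.11.15, numpy 2.4.6, pandas 2.3.3, scipy 1.17.1 and matplotlib 3.10.9 were used.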

Additional observations from a re-analysis of the deposited data

How the results depend on the processing

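Alternatives were merging sites of a strand within 10 or 50 nt, requiring 50 tags, keeping deleted shares under 0.9, counting the base listed on both strands once, extending gene ends by 10 nt and, chosen after seeing the data, leaving that base out. The count of sites ran from 21 to 29, the plus-strand percentage from 71.4 to 81.0, the sense percentage from 75 to 85.7, the median share from 54.5% to 71.3% and the percentage of sites under a 90% share from 67.9 to 73.9. In each alternative 9 genes had a sense site. Keeping shares under 0.9 lowers the median share by construction. It also fixes the count at the 21 sites already reported under that share. Neither value is a sign of stability. The others stayed within the interval of the reported value or within 1.5 times the reported count. Merging, counting the base once and leaving it out kept 28 or 29 of the 30 sites, so little movement was possible there. Extending gene ends left the sense percentage at 76.7 and the genes at 9. No paired analysis was possible because the list pools both libraries; for the same reason no library could be left out. With 30 sites, intervals for percentages of sites are wide, and at the 14 sites with under 100 tags so are those of single shares.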

Other observations

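Each site's name carries an index that rises with position on its strand; no source used here states what it counts. If it numbers positions with a deletion from 0, the plus strand of the mitochondrial genome had at least 45 such positions, of which 22 were listed, and the minus strand at least 19, of which 8 were listed. Read this way, 3 unlisted positions lay in the 3209 nt between the last RNR2 site and the first COX1 site, a stretch that holds ND1 and ND2. Another 5 lay between the last ND4 site at 11461 and the first ND5 site at 12481. The numbers run without a gap from 3107 through 3174 to 3183 on the plus strand, so no unlisted position would lie among these.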
